A study of Mus musculus with 6 samples.

Results

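Gdf15, Vegfa, Lif, Il6 and Il11 encode secreted factors whose transcripts many cells raise under stress, and they were followed here in primary mouse embryonic fibroblasts (MEFs), cells grown out of mouse embryos, exposed to hydrogen peroxide (H2O2). Members were all non-control probes of the deposited scanner files that carried 1 of these 5 gene names. The rule found 4 of the 5 genes, with 6 probe sequences printed as 24 spots on each array, out of 27670 gene names, 41174 probe sequences and 43379 non-control spots. No probe carried the name Lif. The study held 3 groups of 2 one-colour Agilent arrays, all of primary MEFs grown in DMEM with serum: untreated cells (0 h), cells after 2 h in 1 mM H2O2 and cells after 4 h in 1 mM H2O2. Arrays of 1 group are labelled as separate experiments, and whether embryos, cultures or days differed between them, like the strain and genotype of the cells, is not stated there. Untreated cells were followed at 0 h only, so time in culture cannot be told apart from H2O2.

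GDF15 is a distant member of the TGF-beta family that cells under mitochondrial, nutrient or genotoxic stress release into the blood, and its receptor is a pair of GFRAL and RET found on hindbrain neurons. VEGFA drives the growth of blood vessels through the receptor kinases Flt1 and Kdr and the co-receptor Nrp1, and hypoxia is its best known inducer. IL-6, IL-11 and LIF belong to the cytokines that signal through the shared subunit gp130, encoded by Il6st, each with a partner of its own (Il6ra, Il11ra1 or Lifr), to JAK kinases and STAT3, whose target SOCS3 feeds back on the receptor. Fibroblasts are a known source of these cytokines. In bulk RNA, fewer cells with a transcript and less transcript per cell cannot be told apart.

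Proximal promoter sequence is shown for the 4 measured genes because their transcripts were all higher at 2 h, so that the letters ahead of each start site can be read side by side. The sequences are the 250 bases before 1 RefSeq transcript start of each gene (build GRCm38.p6), 5′ to 3′ on the gene's strand, and capitals mark matches to any of 12 motifs on either strand.
Il6 (chr5:30012864-30013113, plus strand): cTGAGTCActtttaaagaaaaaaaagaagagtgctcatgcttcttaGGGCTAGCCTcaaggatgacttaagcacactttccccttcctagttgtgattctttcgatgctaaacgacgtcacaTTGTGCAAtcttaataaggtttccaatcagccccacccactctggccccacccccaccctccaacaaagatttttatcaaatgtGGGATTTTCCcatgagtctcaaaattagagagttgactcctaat
Il11 (chr7:4778142-4778391, minus strand): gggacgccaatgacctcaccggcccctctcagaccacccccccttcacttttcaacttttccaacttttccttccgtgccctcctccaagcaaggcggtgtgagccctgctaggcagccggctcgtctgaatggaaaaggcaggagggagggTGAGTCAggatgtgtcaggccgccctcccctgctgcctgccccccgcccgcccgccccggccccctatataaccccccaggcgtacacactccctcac
Gdf15 (chr8:70632457-70632706, minus strand): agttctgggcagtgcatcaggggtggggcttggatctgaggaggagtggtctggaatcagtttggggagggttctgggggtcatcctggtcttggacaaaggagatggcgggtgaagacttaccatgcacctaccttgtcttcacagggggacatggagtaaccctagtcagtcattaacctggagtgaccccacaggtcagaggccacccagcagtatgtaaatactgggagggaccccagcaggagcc
Vegfa (chr17:46032378-46032627, minus strand): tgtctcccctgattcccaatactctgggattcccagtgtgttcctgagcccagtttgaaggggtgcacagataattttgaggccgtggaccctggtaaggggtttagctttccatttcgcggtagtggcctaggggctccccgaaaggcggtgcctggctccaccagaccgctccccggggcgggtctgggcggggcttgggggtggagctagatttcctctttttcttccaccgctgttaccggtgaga
The motifs searched were AP-1 (TGANTCA), CRE (TGACGTCA), the C/EBP-ATF composite (TGATGNAA), the antioxidant response element (TGACNNNGC), the hypoxia response core (ACGTG), Egr (GCGNGGGCG), STAT (TTCNNNGAA), C/EBP (TTGCNNAA), the TATA box (TATAAA), and the NF-kB motif, the p53 half-site and the CArG box by name. An AP-1 match lay at -249 to -243 from the Il6 start and at -98 to -92 from this Il11 start, and 6.75% of the same stretch of all 32841 windows held one. The Il6 stretch also held an NF-kB match at -44 to -35 (4.11% of windows), a C/EBP match at -128 to -121 (9.57%) and a p53 half-site match at -204 to -195 (7.13%). None of these matches overlapped another. No motif matched in the printed Gdf15 and Vegfa stretches or ahead of the other Il11 start. RefSeq gives Gdf15 and Vegfa a second start each, ahead of which the hypoxia core matched (16.6% of windows). Both second starts lie downstream of the printed ones on the gene's strand, so these matches are not ahead of the first start. For Il11 the downstream start is printed, and for Gdf15 and Vegfa the upstream one. A match describes letters in this window and was not tested as a site, and no match says only that the letters are not there.

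Signals are given as a percentage of each array's 75th percentile over non-control spots, and changes as log2 differences between group means with the standard error (SE) of a limma fit to all 6 arrays (n = 2 arrays per group). A gene rose or fell where the Benjamini-Hochberg adjusted p over 17185 genes was under 0.05. The 75th percentile itself lay between 674 and 883 intensity units, between 57.3% and 68.0% of spots were well above background, no spot was saturated, and replicate arrays correlated across genes at 0.992 to 0.994. The number of arrays limits the precision. All 6 member probes were well above background on all 6 arrays. The median change of all genes was 0.12 (2 h), 0.07 (4 h) and -0.08 (4 h against 2 h), and it depended on the scaling: it was -0.34 at 2 h and -0.20 at 4 h when arrays were scaled to their spike-in controls. That scaling called 1461 genes higher and 9200 lower at 2 h, against 4089 and 2635 here, so the direction of small changes depends on the scaling. Fibroblast markers were well above background on every array for 12 of 12 genes, with summed levels (in multiples of the 75th percentile) of 1250 to 1330 in untreated cells, 1570 to 1600 at 2 h and 1490 to 1600 at 4 h. That percentile was 826 and 883 in untreated cells, 675 and 677 at 2 h, and 674 and 754 at 4 h. The sums therefore depend on the scaling too.

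At 2 h all 4 measured genes rose, where 23.8% of all genes rose and 15.3% fell. Gdf15 rose 7.38-fold, Il11 5.98-fold, Vegfa 1.79-fold on its brightest probe and Il6 1.41-fold. At 4 h 3 of the 4 were past the test upward, against 24.7% of all genes (18.5% fell): Gdf15 at 8.29-fold, Il11 at 2.89-fold and Vegfa at 1.14-fold, the last at the edge of the threshold. Between 2 h and 4 h 3 of the 4 fell (16.5% of all genes fell and 13.4% rose), and Gdf15 did not pass. The rises of Il6 at 2 h and of Vegfa at 4 h did not hold under all scalings, as given with each gene.

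**Figure D1:**
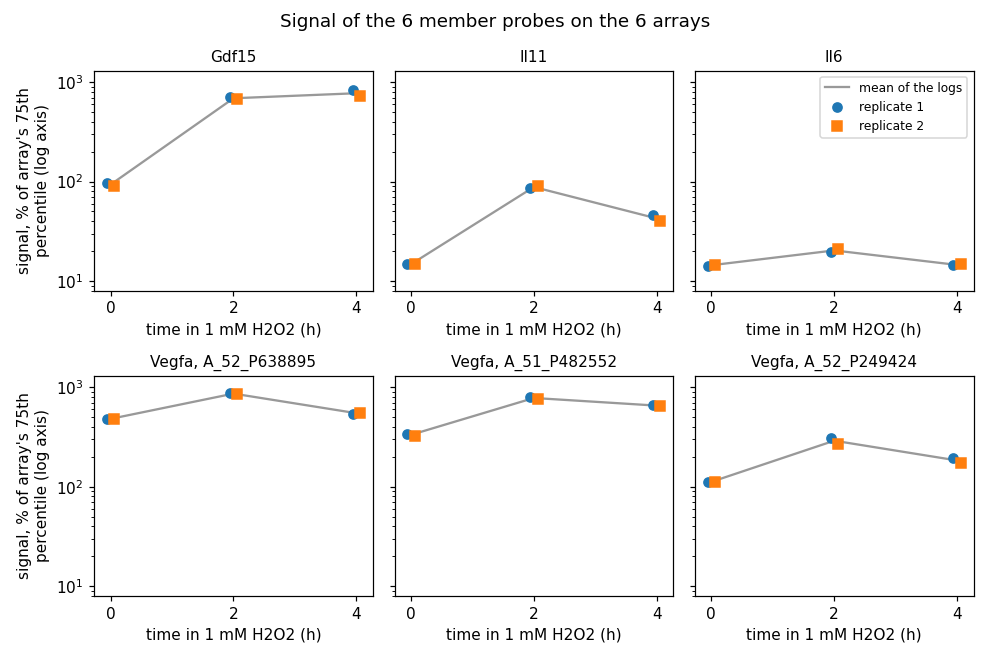
Signal of each of the 6 probes as a percentage of the array's 75th percentile (log axis) against time in 1 mM H2O2, with 1 point per array and a line through the means of the log values. Gdf15 stayed between 670% and 830% at 2 h and 4 h, Il11 and the Vegfa probes were highest at 2 h, and Il6 lay between 14.3% and 21.0% throughout.

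Gdf15 was read by a single probe printed once. Its signal was 97.1% and 89.4% of the 75th percentile in the untreated replicates, 706% and 670% at 2 h, and 830% and 719% at 4 h. Both treated groups lay far above the untreated pair, and the 4 h values overlapped neither those of 2 h nor those of untreated cells, although the gap between 706% and 719% was small. The log2 change was 2.88 ± 0.096 at 2 h (adjusted p = 0.000222) and 3.05 ± 0.096 at 4 h (adjusted p = 0.000249). Among 17185 genes ordered by log2 change it ranked 418 at 2 h and 254 at 4 h. Between the times the difference was 0.17 ± 0.096 (95% interval -0.085 to 0.42, adjusted p = 0.258), 0.23 on slide 1 and 0.10 on slide 2. After spike-in scaling that difference was 0.36 and passed (adjusted p = 0.0360), with normexp it was 0.08, and it was 0.06 without 4 h replicate 1 and 0.27 without 4 h replicate 2.

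Il11, a cytokine of fibroblasts and stroma that signals through Il11ra1 and gp130, was also read by 1 spot per array. Its signal was 14.7% and 14.8% in untreated cells, 86.2% and 90.1% at 2 h, and 45.6% and 39.8% at 4 h. The 3 groups were apart, with 2 h highest and 4 h between. The change was 2.58 ± 0.085 at 2 h (adjusted p = 0.000216) and 1.53 ± 0.085 at 4 h (adjusted p = 0.000678). Between the times the transcript fell by 1.05 ± 0.085 on the log2 scale (adjusted p = 0.00302), with -0.92 on slide 1 and -1.18 on slide 2.

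Il6, the acute-phase cytokine, was read by a probe printed in 10 spots. Its signal was 14.3% and 14.5% in untreated cells, 19.6% and 21.0% at 2 h, and 14.4% and 14.7% at 4 h. Values at 2 h were above all others, and the 4 h pair overlapped the untreated pair. The change was 0.49 ± 0.062 at 2 h (adjusted p = 0.00527) and 0.01 ± 0.062 at 4 h (95% interval -0.15 to 0.17, adjusted p = 0.908). Il6 then fell by 0.48 on the log2 scale from 2 h to 4 h (adjusted p = 0.00776). The call of the 2 h rise rested on the scaling: the mean intensity of the 10 spots was 118.4 and 128.2 in untreated cells and 132.3 and 142.8 at 2 h before any scaling. With no scaling the 2 h change was 0.16 (adjusted p = 0.268), after spike-in scaling 0.04 (adjusted p = 0.625), and after normexp background correction 0.41 (adjusted p = 0.323). Quantile normalization (0.38, adjusted p = 0.0084) and median centring (0.30, adjusted p = 0.0261) kept the call. At 2 h Il6 lay 0.38 above the median change of all genes here, and 0.27 above it with normexp. After spike-in scaling it was again 0.38 above, but a factor per array moves Il6 and the median alike, so this is no separate check. Its fall from 2 h to 4 h did not hold under normexp (0.01) and missed the threshold with no scaling (-0.41, adjusted p = 0.0501), and its 4 h change was -0.25 after spike-in scaling (adjusted p = 0.0431) and 0.42 with normexp (adjusted p = 0.217). The spots of this probe on 1 array had an SD of 0.042 to 0.12 on the log2 scale.

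Vegfa was read by 3 probes, all named by the same RefSeq transcript and all on chromosome 17. In the files' own coordinates, (build not given in the sources used here), which run downward along this gene, A_52_P249424 comes first, then A_51_P482552, then A_52_P638895. All 3 rose at 2 h, as did all 6 member probes, where 21.2% of the 25875 probes tested did. At 4 h 4 of the 6 member probes were past the test upward (23.0% of all probes), and from 2 h to 4 h 5 of the 6 fell (14.8%).

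The brightest probe, A_52_P638895, which stood for the gene, gave 485% and 479% in untreated cells, 880% and 850% at 2 h, and 544% and 555% at 4 h. Its 4 h values were above the untreated pair by a narrow margin and far below the 2 h pair. The change was 0.84 ± 0.054 at 2 h (adjusted p = 0.000834) and 0.19 ± 0.054 at 4 h (adjusted p = 0.0464). Fitted among all probes, the same 4 h change did not pass (adjusted p = 0.0558, and 0.0395 with the replicate block), and with no scaling it was -0.07. Any 1 array left out also ended the 4 h call (0.17 to 0.20). The mean of the gene's 3 probes gave 0.63 at 4 h (adjusted p = 0.00482). This probe then fell by 0.65 on the log2 scale (adjusted p = 0.00314).

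The middle probe, A_51_P482552, printed in 10 spots, gave 340% and 326%, then 802% and 763%, then 664% and 646%. Both treated pairs were well above the untreated one, with changes of 1.23 ± 0.063 at 2 h (adjusted p = 0.000573) and 0.98 ± 0.063 at 4 h (adjusted p = 0.00109). It fell by 0.26 from 2 h to 4 h (adjusted p = 0.0433), a call lost under 12 alternatives, leaving out any 1 array among them (-0.29 to -0.22). The probe A_52_P249424 gave 113% and 111%, then 310% and 272%, then 195% and 174%. Its 3 pairs did not overlap, and it rose by 1.38 ± 0.098 at 2 h (adjusted p = 0.00123) and by 0.71 ± 0.098 at 4 h (adjusted p = 0.00678). Its fall from 2 h to 4 h was 0.66 (adjusted p = 0.0118), and it did not pass without 2 h replicate 1 (-0.57, adjusted p = 0.0554) or without 4 h replicate 2 (-0.58, adjusted p = 0.0510).

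**Figure D2:**
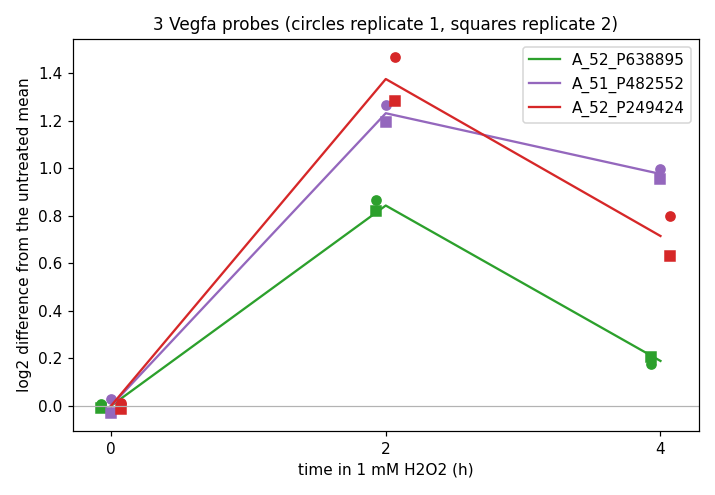
Log2 difference from the mean of the 2 untreated arrays for the 3 Vegfa probes against time in 1 mM H2O2, with circles for replicate 1, squares for replicate 2 and lines through the means. The probes rose by 0.84, 1.23 and 1.38 at 2 h and stood at 0.19, 0.98 and 0.71 at 4 h.

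The size of the Vegfa change thus differed between probes, and after this was seen the difference was fitted for all 9954 pairs of probes of 1 gene. At 2 h A_51_P482552 rose by 0.39 ± 0.074 more than A_52_P638895 (adjusted p = 0.0316), and A_52_P249424 by 0.53 ± 0.10 more (adjusted p = 0.0317), so 2 of the 3 Vegfa pairs passed where 12.1% of all pairs did. At 4 h the same 2 differences were 0.79 ± 0.074 (adjusted p = 0.00408) and 0.53 ± 0.10 (adjusted p = 0.0291), where 14.5% of pairs passed. Between 2 h and 4 h A_51_P482552 changed by 0.41 more than A_52_P249424 (adjusted p = 0.0457) and by 0.40 more than A_52_P638895 (adjusted p = 0.0299), where 12.5% of pairs passed. A factor applied to a whole array moves all its probes alike and so leaves these differences as they are. The 4 h difference of 0.79 passed under all alternatives run, though scalings by such a factor could not change it. Each of the other 5 lost its call when 1 array or another was left out. With normexp the 2 h differences (0.40 and 0.52, adjusted p = 0.14 and 0.08) lost their calls too. So did those between the times (0.33 and 0.37, adjusted p = 0.18 and 0.144). Whether the probes read different transcript forms was not tested.

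Lif had no probe by its name. A probe named by the clone AK019683, which the files describe as a leukemia inhibitory factor clone on chromosome 11, lay outside the rule and is given for completeness. Its signal was 7.05% and 7.34% in untreated cells, 8.44% and 9.73% at 2 h, and 9.02% and 10.0% at 4 h. The treated values were all above the untreated ones and the 2 treated pairs overlapped. Its change was 0.33 ± 0.10 at 2 h (adjusted p = 0.0607 among all probes, 0.0210 with the replicate block) and 0.40 ± 0.10 at 4 h (adjusted p = 0.0339). The 4 h call was lost under 10 of the alternatives, and the 2 h change was -0.12 after spike-in scaling.

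**Figure D3:**
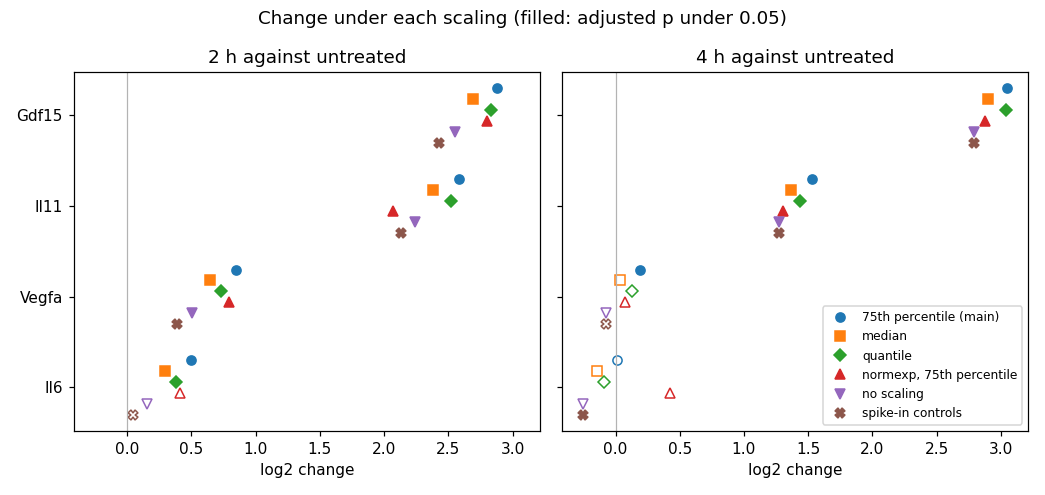
Log2 change of the 4 measured genes at 2 h (left) and 4 h (right) under 6 scalings of the arrays, filled where the adjusted p was under 0.05. Gdf15 and Il11 passed under all 6 at both times and Vegfa under all 6 at 2 h, while Il6 at 2 h passed under 3 of the 6.

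The receptor partners of the cytokines were measured in the same cells. Il6ra, which binds IL-6, rose by 1.62 ± 0.17 at 2 h (adjusted p = 0.00288) and 0.98 ± 0.17 at 4 h (adjusted p = 0.0111). Its other probe rose by 1.73 and 1.18. The fall from 2 h to 4 h was 0.64 (adjusted p = 0.0459), a call lost with the replicate block (adjusted p = 0.0510). Il6st, the shared gp130 subunit, had -0.14 ± 0.064 at 2 h and fell by 0.28 at 4 h (adjusted p = 0.0249). Il11ra1, which binds IL-11, fell by 0.21 at 4 h (adjusted p = 0.0345).

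Lifr, the LIF receptor subunit, rose by 0.36 ± 0.064 at both times on its brightest probe (adjusted p = 0.0145 and 0.0129), but its 2 h change was -0.10 after spike-in scaling. None of its other probes passed at 2 h, and the mean of its 5 probes was 0.14 then (adjusted p = 0.212). Other probes rose at 4 h by 0.725 (adjusted p = 0.00513) and 0.62 (adjusted p = 0.00264), and from 2 h to 4 h by 0.49 and 0.44. A further probe had 0.27 at 4 h (adjusted p = 0.316), and the last had -0.12 at 2 h and -0.16 at 4 h. Osmr, the oncostatin M receptor, fell by 0.30 at 2 h (adjusted p = 0.0135) and rose by 0.21 from 2 h to 4 h (adjusted p = 0.0439). Of the 17 receptors and transducers of this pathway tested, 2 rose and 3 fell at 2 h, and 2 rose and 5 fell at 4 h. Their median was -0.03 at 2 h and -0.09 at 4 h. Here and for the lists below, all genes are the comparison: 23.8% rose and 15.3% fell at 2 h. At 4 h 24.7% of all genes rose and 18.5% fell, and their medians were 0.12 and 0.07. The transducer Stat5a fell by 0.73 at 4 h (adjusted p = 0.0122), and the adaptor Gab1 fell by 0.60 at 2 h (adjusted p = 0.00653). Gab1 stood at 0.05 at 4 h (adjusted p = 0.631).

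Stat3, the main transducer of gp130, did not pass on its brightest probe, with 0.15 ± 0.11 at 2 h (adjusted p = 0.315) and -0.19 ± 0.11 at 4 h (adjusted p = 0.227, and 0.0474 with the replicate block). Its brightest probe was past the test downward at 4 h after quantile normalization (-0.37, adjusted p = 0.0269), with no scaling (-0.45, adjusted p = 0.0134) and after spike-in scaling (-0.45, adjusted p = 0.0193), the last also at 2 h (-0.30, adjusted p = 0.0492). Its other probe rose by 2.11 at 2 h and 1.17 at 4 h, and the mean of its probes was past the test upward at both times (1.13, adjusted p = 0.00469, and 0.49, adjusted p = 0.0412). Socs3, the feedback inhibitor, had -0.18 ± 0.053 at 2 h (adjusted p = 0.0534), rose by 0.53 at 4 h (adjusted p = 0.00271) and rose by 0.72 between the times (adjusted p = 0.00268). Among 20 feedback genes and targets of the pathway, 9 rose and 6 fell at 2 h, and 12 rose and 2 fell at 4 h. Their median was 0.24 at 2 h and 0.54 at 4 h (0.12 and 0.07 for all genes). Of all genes 23.8% rose and 15.3% fell at 2 h, and 24.7% rose and 18.5% fell at 4 h. The AP-1 subunit Junb rose by 1.33 at 2 h (adjusted p = 0.000409) and the adhesion molecule Icam1 by 1.14 at 4 h (adjusted p = 0.00101). The feedback inhibitor Socs1 fell by 1.13 at 2 h (adjusted p = 0.000721), and the transcription factor Cebpd fell by 1.08 at 2 h (adjusted p = 0.000695). Neither was lower at 4 h by the test: Socs1 was at -0.04 (adjusted p = 0.646) and Cebpd was past it upward (0.29, adjusted p = 0.0232).

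Of 7 other cytokines of the gp130 family tested, 2 rose and none fell at 2 h, and 2 rose and 2 fell at 4 h, with medians of 0.21 and 0.17. In limma none fell at 2 h at an unadjusted p under 0.05 either. Over all genes 23.8% rose and 15.3% fell at 2 h, and 24.7% and 18.5% at 4 h, with medians of 0.12 and 0.07. Il31, an itch cytokine of this family whose receptor includes the oncostatin M receptor but not gp130, was at least 8.57-fold higher at 2 h. It was not well above background on either untreated array, and its adjusted p of 0.00292 was that of the fitted change, not of this bound. The cardiotrophin-like cytokine Clcf1 rose by 0.73 at 2 h (adjusted p = 0.00248) and cardiotrophin Ctf1 fell by 0.50 at 4 h (adjusted p = 0.0120). Oncostatin M itself (Osm) was not well above background in any group.

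**Figure D4:**
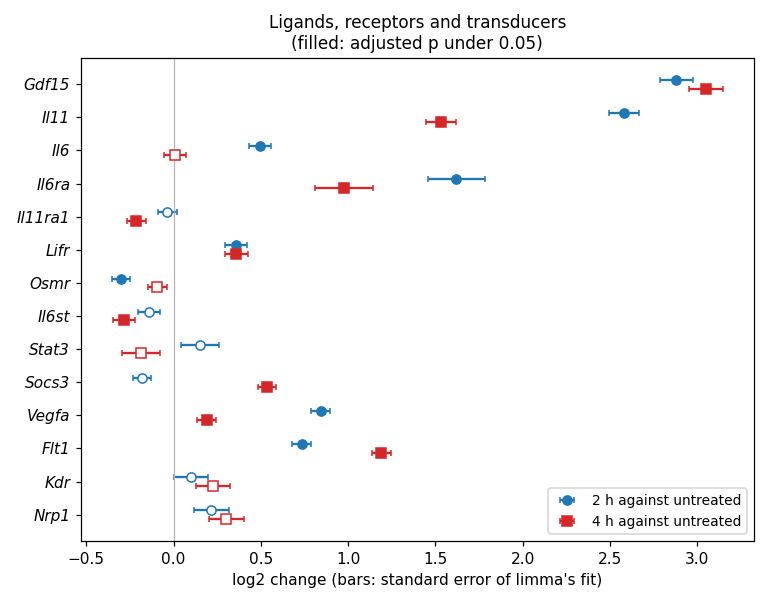
Log2 change at 2 h (circles) and 4 h (squares) of the measured ligands and of receptors, transducer and feedback genes, with bars for the SE of the limma fit and filled symbols where the adjusted p was under 0.05. Among the receptors, Il6ra reached 1.62 at 2 h and Flt1 1.19 at 4 h, and the others lay between -0.30 and 0.36.

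Flt1, a receptor kinase that binds VEGFA tightly, rose on its brightest probe by 0.73 ± 0.055 at 2 h (adjusted p = 0.00126), by 1.19 ± 0.055 at 4 h (adjusted p = 0.000505) and by 0.46 between the times (adjusted p = 0.00693). Its 3 other probes were divided, with changes of -0.09, -0.13 and 0.70 at 2 h and -0.43, 0.38 and 1.28 at 4 h. Between the times the first of them was past the test downward (-0.33, adjusted p = 0.0450 among all probes). The others had 0.51 (adjusted p = 0.113) and 0.58 (adjusted p = 0.0624). Kdr, the main signalling receptor in endothelium, did not pass, with 0.10 ± 0.098 at 2 h (95% interval -0.16 to 0.36) and 0.23 ± 0.098 at 4 h (-0.03 to 0.49). Nrp1 did not pass on its brightest probe either, with 0.22 ± 0.098 and 0.30 ± 0.098, while another probe fell by 0.75 at 2 h and 1.11 at 4 h. Of 4 VEGF receptors and co-receptors tested in limma, 1 rose at each time and none fell (2 rose and none fell at an unadjusted p under 0.05, at each time). The median was 0.20 at 2 h and 0.27 at 4 h (0.12 and 0.07 for all genes). By adjusted p, 23.8% of all genes rose and 15.3% fell at 2 h, and 24.7% rose and 18.5% fell at 4 h.

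None of 4 other VEGF family ligands rose or fell in limma at 2 h (at an unadjusted p under 0.05, 1 rose), and 1 fell at 4 h, Vegfc, a ligand of lymphatic vessels, by 0.40 (adjusted p = 0.0301). Their medians were 0.21 and 0.05 (0.12 and 0.07 for all genes). Of all genes 23.8% rose and 15.3% fell at 2 h, and 24.7% rose and 18.5% fell at 4 h. Endothelial markers were measured beside these genes: 3 of 8 were well above background on all arrays, Cdh5 and Tie1 on none, and their summed level was 0.303 to 0.329 in untreated cells, 0.826 to 0.913 at 2 h and 0.748 to 0.76 at 4 h. Of 11 leukocyte markers 8 were well above background on all arrays, and they summed to 18.8 to 20.2, then 22.1 to 22.5, then 21.1 to 22.5. Their part in the cytokine and receptor values was not tested.

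Of 18 hypoxia targets other than Vegfa, 7 rose and 3 fell at 2 h, and 3 rose and 5 fell at 4 h. Their medians were 0.22 and 0.08, against 0.12 and 0.07 for all genes. Over all genes 23.8% rose and 15.3% fell at 2 h, and 24.7% rose and 18.5% fell at 4 h. The repressor Bhlhe40 rose by 0.89 at 2 h (adjusted p = 0.00201) and Ndrg1 by 0.58 at 4 h (adjusted p = 0.00249). Adrenomedullin (Adm), a vasodilator peptide, fell by 1.28 at 2 h (adjusted p = 0.000589) and Ankrd37 by 1.07 at 4 h (adjusted p = 0.0236).

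Of 24 genes tested of a list of TGF-beta family ligands, counted without Gdf15, 7 rose and 2 fell at 2 h, and 8 rose and 8 fell at 4 h, with medians of 0.13 and 0.09. Bmp1, which rose at 4 h (0.36, adjusted p = 0.0421) and is counted there, encodes a procollagen protease and no ligand. Over all genes 23.8% rose and 15.3% fell at 2 h, and 24.7% and 18.5% at 4 h, with medians of 0.12 and 0.07. Gdf9, an oocyte factor, rose by 3.16 at 2 h (adjusted p = 0.000307), and the activin subunit Inhbe by 2.22 (adjusted p = 0.000496). The activin subunit Inhbc was at least 3.54-fold higher at 2 h and was not well above background in untreated cells. Its adjusted p of 9.51e-05 was that of the fitted change, not of this bound. With normexp the Inhbc change was 1.15 (adjusted p = 0.132). For GDF15 itself, Gfral had no probe by this name and Ret was not well above background on any array. No gene of its reception was thus tested. Among 4 genes tested for its processing none passed in limma at 2 h (at an unadjusted p under 0.05, 1 rose), and 1 rose at 4 h, the protease Furin, by 0.28 (adjusted p = 0.0480), a change of 0.02 after spike-in scaling.

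Where 23.8% of all genes rose and 15.3% fell at 2 h, 10 of 32 other stress-secreted factors tested rose and 9 fell. At 4 h 8 rose and 8 fell, against 24.7% and 18.5% of all genes. Medians of this list were 0.04 and 0.05, against 0.12 and 0.07 for all genes. The EGF receptor ligands were among the largest rises of this list. Areg was at least 8.54-fold higher at 2 h and not well above background in untreated cells. Its adjusted p of 0.00495 was that of the fitted change, not of this bound. With normexp the Areg change was 1.42 (adjusted p = 0.0563). Hbegf rose by 1.36 at 2 h (adjusted p = 0.000349), and Ereg rose by 1.86 at 4 h (adjusted p = 0.000855), with 0.03 on its other probe. Endothelin Edn1, a vasoconstrictor peptide, fell by 1.54 at 2 h (adjusted p = 0.000676).

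For the next 2 lists too, all genes are the comparison: 23.8% rose and 15.3% fell at 2 h. At 4 h 24.7% of all genes rose and 18.5% fell, and their medians were 0.12 and 0.07. Of 20 transcription factors known to act on the measured genes, 9 rose and 3 fell at 2 h, and 8 rose and none fell at 4 h (none at an unadjusted p under 0.05 either, limma), with medians of 0.20 and 0.21. The stress factor Atf3 rose by 2.61 at 2 h (adjusted p = 0.000116), and the AP-1 subunit Fosl1 rose by 1.73 at 4 h (adjusted p = 0.000507). Junb and Cebpd, given above, belong to this list too. Of 13 factors that bind AU-rich or stem-loop elements of short-lived cytokine transcripts, 4 rose and none fell at 2 h (none at an unadjusted p under 0.05 either, limma), and 6 rose and 2 fell at 4 h, with medians of 0.28 and 0.29. Zfp36, which speeds the decay of AU-rich transcripts, rose by 0.63 at 4 h on its brightest probe (adjusted p = 0.00290; 1.03 with adjusted p = 0.113 for the mean of its probes), and Rc3h1, which encodes the decay factor roquin, rose by 0.73 (adjusted p = 0.00973). Arid5a, which protects Il6 transcripts, fell by 0.62 (adjusted p = 0.0192), and Tial1 fell by 0.55 (adjusted p = 0.00417), with -0.11 and 0.27 on their other probes. Tial1 did not pass by the mean of its probes (-0.14, adjusted p = 0.149). The medians of these 11 lists moved with the scaling: after spike-in scaling all 11 were below 0 at 2 h, and 8 of 11 at 4 h. Of 43 called changes of receptor and list genes, 21 lost their call under 1 or more of 5 other backgrounds and scalings, among them those of Lifr, Osmr, Areg, Edn1, Inhbc and Inhbe at 2 h, those of Il6st, Lifr, Il11ra1, Socs3, Furin, Ankrd37, Ndrg1, Vegfc, Ctf1, Rc3h1 and Arid5a at 4 h, and those of Osmr, Il6ra and Flt1 between the times. Leaving out 1 array ended 15 of the 43 calls, those of Il6ra and Stat5a at 4 h and 13 of the 21. Taking the mean of a gene's probes ended 7 of the 43, those of Zfp36 and Tial1 at 4 h and 5 of the 21.

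The genes whose pattern over the 6 arrays lay nearest to each measured gene were found by the Euclidean distance of log2 differences from the untreated mean. Nearest to Gdf15 were Prss56, a serine protease (distance 0.145), Plch2, a phospholipase C (0.166), and Eaf2 (0.349). Nearest to Il11 were Pecam1, an endothelial adhesion molecule (0.217), Ankrd61 (0.239) and Ifna13, an interferon (0.256). Nearest to Vegfa were Tnxb, a tenascin (0.141), Hivep3 (0.158) and Bhlhe40 (0.168), and nearest to Il6 were Wfdc2 (0.117), Nfe2l3 (0.123) and the olfactory receptor Olfr411 (0.135). The nearest genes of Gdf15 had mean changes of 2.78 to 2.93 at 2 h and 3.06 to 3.26 at 4 h, and those of Il11 had 2.47 to 2.64 and 1.59 to 1.64.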

How the data were processed

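RNA of 6 samples was labelled with Cy3, per the labels' protocols, and scanned with a G2505B scanner, and signals were extracted with Feature Extraction 9.5.3.1 under protocol GE1-v5_95_Feb07, per the file headers. The deposited files hold fluorescence intensity per spot, background-corrected by the authors' extraction software. From it log2 values were computed here, so each log2 change comes from deposited intensity.

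Each array's 75th percentile over non-control spots was subtracted, outlier spots were left out and repeated spots averaged. The brightest probe stood for a gene. Of 41174 probes, 22951 were named by accession in a RefSeq table, 6659 by symbol, 3109 by an older symbol and 8455 by the name in the file. The 17185 genes well above background on both arrays of 1 group or more were fitted with limma 3.58.1 in R 4.3.3 (with the data.table package, version 1.17.8), in 1 model of 3 groups (3 residual and 1.64 prior degrees of freedom). The same model was afterwards run on data simulated from the genes' own means and spreads, with no slide effect. "At least" folds set the bright group's mean against the higher, per array, of the lowest signal well above background and the dim probe's own signal. The adjusted p given with such a fold is that of the fitted change, in which the dim signal counts as measured. These genes entered the fit through treated arrays alone.

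Replicates 1 and 2 of every group lay on slides 1 and 2, and replicate differences correlated between groups at 0.243, 0.196 and 0.241, so the numbers pair the arrays. Each time point took the same place on the slide, so position and time cannot be told apart. P-values measure the spread between arrays, which may be partly technical.

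The members, lists and rules were chosen with earlier results of these data known. Named were all members, 12 receptor and feedback genes, up to 4 genes past the test per list (members counted out of their lists), and 3 nearest genes per member; 1 gene that the rule names is not reported here. Other backgrounds, scalings, filters, probe rules, the deposited value table, the replicate block and leaving out each array were alternatives. No coordinate of a probe is printed, the build being "not given in the sources used here".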

Additional observations from a re-analysis of the deposited data

Results flagged for a closer look

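The change against untreated cells differed between the times, by a test of the 4 h against 2 h difference itself, for Il11 (-1.05, adjusted p = 0.00302 in limma), Vegfa on its brightest probe (-0.65, adjusted p = 0.00314) and Il6 (-0.48, adjusted p = 0.00776). All 3 were lower at 4 h on both slides. With normexp background correction the Il6 difference was 0.01.

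The 3 Vegfa probes differed from each other in their change, tested over all pairs of probes of 1 gene. At 4 h A_51_P482552 was 0.79 above A_52_P638895 and A_52_P249424 was 0.53 above it. From 2 h to 4 h A_51_P482552 moved by 0.41 relative to A_52_P249424 and by 0.40 relative to A_52_P638895. Only the difference of 0.79 kept its call under all alternatives. The pairs were examined after the probes had been seen to differ.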

How the results depend on the processing

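The changes of Gdf15 and Il11 at 2 h and 4 h, of Vegfa at 2 h, and of Il11 and Vegfa from 2 h to 4 h kept their direction and call under all 17 alternatives, with ranges of 2.43 to 2.94 and 2.79 to 3.16 (Gdf15), 2.07 to 2.61 and 1.27 to 1.63 (Il11), 0.39 to 1.15 (Vegfa at 2 h), -1.15 to -0.77 (Il11) and -0.72 to -0.46 (Vegfa). Several of those 17 could not move these changes. The filters, the replicate block and leaving out an array of the group not compared alter only the SE and adjusted p. The deposited value table repeated the main values. Gdf15 and Il11 have 1 probe each, so averaging probes left their changes as they were. The replicate block, which takes the paired slides into account, changed no call of a measured gene (Il6 at 2 h 0.49, adjusted p = 0.00579).

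The Il6 change at 2 h was 0.41 (normexp), 0.16 (no scaling) and 0.043 (spike-in), past the test in none of these. At 4 h it was 0.42 (normexp), -0.089 (quantile), -0.15 (median centring), -0.25 (no scaling), -0.25 (spike-in) and -0.0049 to 0.026 without 1 array. Between the times it was -0.41 with no scaling and 0.014 with normexp. The Gdf15 difference between the times was 0.36 after spike-in scaling, 0.076 with normexp and 0.065 to 0.27 without 1 array. The Vegfa change at 4 h was 0.075 (normexp), 0.13 (quantile), 0.033 (median centring), -0.071 (no scaling), -0.073 (spike-in), 0.19 with no filter on dim probes and 0.17 to 0.20 without 1 array, past the test in none of these, and 0.63 (adjusted p = 0.00482) by the mean of its probes. Between the times A_51_P482552 had -0.35 (normexp), -0.19 (quantile), -0.21 (median centring), -0.18 (no scaling), -0.065 (spike-in), -0.26 (no filter) and -0.29 to -0.22 without 1 array, and A_52_P249424 had -0.68 (normexp) and -0.76 to -0.57 without 1 array. The causes were not tested.

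Values of no measured member that turned were the clone AK019683 at 2 h (-0.0044 with no scaling, -0.12 spike-in), Lifr at 2 h (-0.10 spike-in), Kdr at 2 h (-0.10 median centring, -0.24 no scaling, -0.35 spike-in) and 4 h (-0.032 no scaling, -0.034 spike-in), Nrp1 at 2 h (-0.12 no scaling, -0.23 spike-in, -0.17 mean of probes) and 4 h (-0.19 mean of probes), and Stat3 at 2 h (-0.087 quantile, -0.047 median centring, -0.19 no scaling, -0.30 spike-in) and 4 h (0.49 mean of probes), where its fall passed with quantile (-0.37), no scaling (-0.45) and spike-in (-0.45). Of 43 called changes of list and receptor genes, 22 kept their call under all 5 backgrounds and scalings, 28 with any 1 array left out, 31 with no filter on dim probes and 36 when a gene's probes were averaged.

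Genes higher at 2 h numbered 813 (normexp), 2577 (quantile), 1843 (median centring), 1529 (no scaling), 1461 (spike-in), 2337 (no filter) and 1983 to 3627 without 1 array. Genes lower at 2 h numbered 743 (normexp), 5708 (no scaling), 9200 (spike-in), 1701 (no filter) and 1603 to 2482. At 4 h 1514 (normexp), 2283 (median centring), 1763 (no scaling), 1986 (spike-in), 2645 (no filter) and 2407 to 3474 were higher, and 851 (normexp), 5457 (no scaling), 6184 (spike-in), 1908 (no filter) and 1842 to 2669 lower. From 2 h to 4 h 781 (normexp), 3833 (spike-in), 1410 (no filter) and 1316 to 2015 were higher, and 246 (normexp), 1753 (median centring), 1584 (no scaling), 1276 (spike-in), 1076 (no filter) and 1045 to 2182 lower. The share of called genes that were higher was 60.8% at 2 h against 44.1% (quantile), 32.5% (median centring), 21.1% (no scaling) and 13.7% (spike-in), 57.2% at 4 h against 45.8%, 35.7%, 24.4% and 24.3%, and 44.8% between the times against 56% (median centring), 58.6% (no scaling), 76% (normexp) and 75% (spike-in). The majority kept its direction with normexp at 2 h (52.2%) and 4 h (64%), and with quantile between the times (49.6%).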
